A study of Saccharomyces cerevisiae with 22 samples.

Results

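The 6 genes described here, HSP60, HSP10, SSC1, MDJ1, MGE1 and HSP78, encode the chaperone machinery of the mitochondrial matrix in budding yeast, Saccharomyces cerevisiae. They were taken by name, as a set chosen with earlier results of these data known, and all 6 are among the 5381 genes of the deposited table. Their mRNA and their ribosome footprints were counted in cells growing in synthetic complete medium with glucose and in cells moved for 15 min to the same medium without glucose. The strains were BY4741, a laboratory strain related to the reference genome strain, and EY0690, which the labels call w303. Cultures grew at 30 °C to an OD600 of 0.3 to 0.4, and every culture, in both conditions, was treated for 1 min before harvest with 100 µg/ml cycloheximide, which stops elongating ribosomes. Footprints are the mRNA pieces left inside ribosomes after RNase I digestion. The 22 samples comprise 2 footprint libraries and 2 polyA-selected RNA libraries per strain and condition, 1 total RNA library per condition in BY4741, and 1 total and 1 RiboZero (rRNA-depleted) library per condition in EY0690, which the deposited table holds as a single pooled column per condition. The labels do not say whether replicates came from separate cultures, so p-values measure only the spread between these libraries.

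Nearly all matrix proteins are made on cytosolic ribosomes, cross the inner membrane unfolded and fold inside. Ssc1, the matrix Hsp70, binds the incoming chain and pulls it in. Mdj1, a J-protein, stimulates the Ssc1 ATPase, and Mge1 releases its nucleotide so that the cycle can start again. The Hsp60 barrel, capped by Hsp10, then encloses and folds many of these proteins, and Hsp78, a ClpB-type disaggregase related to cytosolic Hsp104, frees proteins and Ssc1 itself from aggregates after stress. HSP60, HSP10, SSC1 and MGE1 are essential for growth. In yeast, heat shock factor Hsf1 acts through heat shock elements, repeats of a GAA unit in alternating orientation, and the general stress factors Msn2 and Msn4 act through the stress response element, AGGGG.

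Each gene is a single coding exon starting with ATG in the annotation of build R64. HSP60 (YLR259C) is at chrXII:663284-665002 and HSP10 (YOR020C) at chrXV:370524-370844, both on the minus strand. SSC1 (YJR045C) is at chrX:519638-521602 and MDJ1 (YFL016C) at chrVI:104701-106236, also on the minus strand. MGE1 (YOR232W) is at chrXV:774573-775259 on the plus strand, and HSP78 (YDR258C) is at chrIV:971808-974243 on the minus strand. No 28-base word of HSP60, HSP10, MDJ1, MGE1 or HSP78 occurs elsewhere in the genome, and 2 of the 1938 words of SSC1 do. SSC1 shares none with its close relatives ECM10 and SSQ1, and HSP78 none with HSP104, so reads of that length from these genes can be told from those of their relatives.

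The stretches upstream of the coding sequence that hold stress motifs are shown for the 4 genes that have one, because the responses described afterwards differ among them. Each is printed 5′ to 3′ on the strand of its gene, with heat shock element and stress response element matches in capitals. They were read from build R64, HSP60 at chrXII:665180-665232, HSP10 at chrXV:370972-371024, HSP78 at chrIV:974349-974510 and SSC1 at chrX:521831-521875.
HSP60: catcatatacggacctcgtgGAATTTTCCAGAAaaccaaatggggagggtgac
HSP10: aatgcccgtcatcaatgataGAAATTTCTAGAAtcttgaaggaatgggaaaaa
HSP78: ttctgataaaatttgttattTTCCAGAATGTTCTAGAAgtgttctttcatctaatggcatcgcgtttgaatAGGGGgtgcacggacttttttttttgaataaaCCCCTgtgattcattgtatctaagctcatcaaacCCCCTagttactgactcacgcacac
SSC1: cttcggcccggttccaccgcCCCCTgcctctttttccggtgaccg
A heat shock element of 3 units, TTCNNGAANNTTC or its reverse complement GAANNTTCNNGAA, was searched in the 300 bases before the ATG. The 3-unit element occurs in 0.911% of 5379 such windows (49 of them), and in HSP60 (210 to 198 bases before the ATG), HSP10 (160 to 148) and HSP78 (247 to 230, where 2 overlapping matches form a longer repeat). The stress response element AGGGG or CCCCT occurs in 22.6% of windows, and matches SSC1 once and HSP78 at 3 places. MDJ1 and MGE1 hold neither of these strings in this window. A match is a string of letters and not a measured binding site.

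Counts of the downstream region, the coding sequence past its start, ran from 698310 to 8110916 per library over the 16 polyA and footprint libraries, and the lowest downstream count of a member in any of them was 98, for MGE1 in the first starved EY0690 footprint library. The footprint libraries numbered 2 of BY4741 stand apart. Their log2 CPM (counts per 1000000, TMM-scaled) correlate with the same-numbered polyA library at 0.946 in glucose and 0.942 in starvation over 5018 genes, against 0.822 to 0.875 for the other 6 footprint libraries. Most footprint results are followed by their values without these libraries. All levels are shares of a library, so a change common to all mRNAs or all footprints does not show in them. Rises and falls are therefore relative to the other genes. In libraries from whole cultures, fewer copies of an mRNA in every cell and fewer cells with the usual number cannot be told apart.

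PolyA RNA of 5 of the 6 genes rose after glucose withdrawal, led by the disaggregase and the J-protein, and that of MGE1 did not pass the test. In the same fit 20.4% of 5304 genes rose (1083) and 19.2% fell (1020). The test was the edgeR quasi-likelihood F test over 8 libraries with strain as covariate, Benjamini-Hochberg adjustment over all genes and an adjusted p threshold of 0.05. The median log2 change was 1.04 over the 6 genes and -0.03 over all genes.

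**Figure D1:**
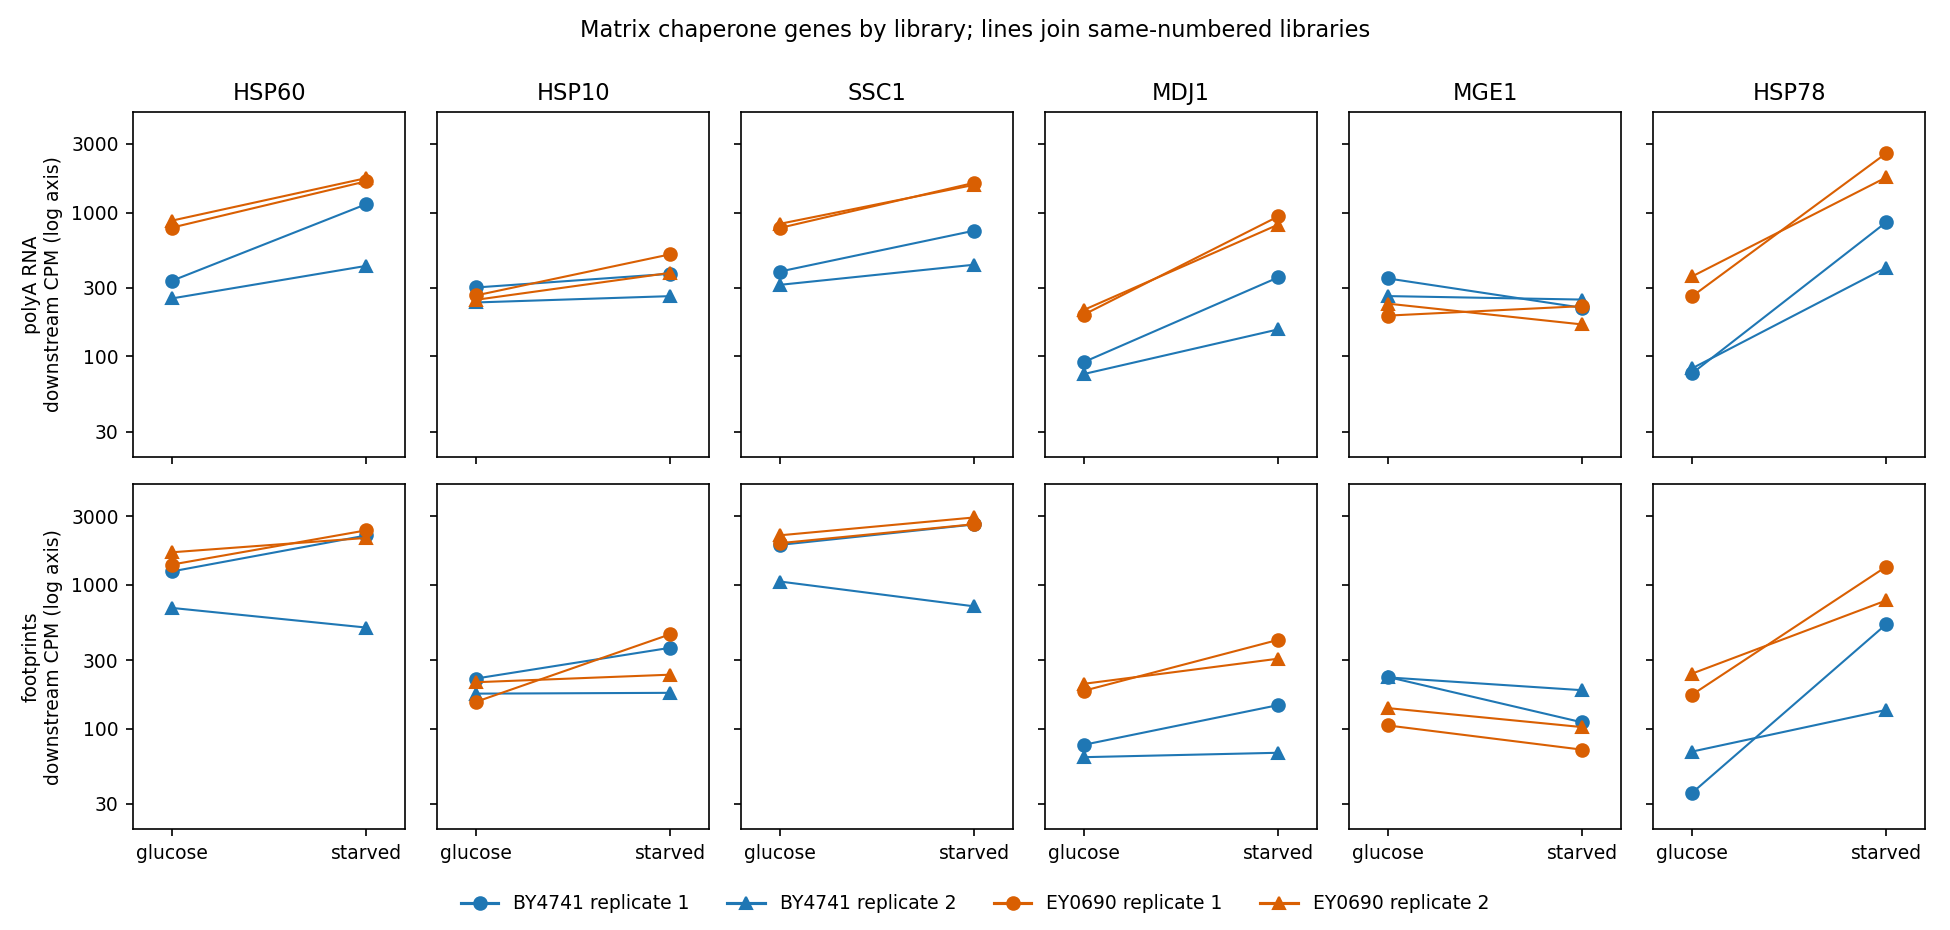
Downstream CPM on a log axis of each gene in polyA RNA (upper row) and in footprints (lower row), in glucose and after 15 min of starvation. Each line joins same-numbered libraries of 1 strain. HSP78 polyA RNA ran from 76.2 to 360 CPM in glucose and from 414 to 2588 CPM in starvation, and the BY4741 footprint line numbered 2 falls for HSP60 and for SSC1.

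For HSP78, polyA RNA stood at 76.2 and 82.6 CPM in glucose and 857 and 414 CPM in starvation in BY4741. In EY0690 it went from 262 and 360 CPM to 2588 and 1758 CPM. All 4 starved libraries lay above all 4 glucose libraries, which no other member showed in either assay. How many of all genes did so was not counted. The fitted log2 change was 2.90 ± 0.24 (SE, adjusted p = 1.63e-06), a 7.49-fold rise that ranked 96 of 5304 genes. Its cytosolic relative HSP104, the disaggregase of heat-shocked yeast, rose by 3.68 ± 0.27.

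Among SSC1 and its cofactor genes MDJ1 and MGE1, MDJ1 moved most. MDJ1 polyA RNA was 91.4 and 75.4 CPM in glucose and 354 and 154 CPM in starvation in BY4741, and 196 and 211 against 940 and 825 CPM in EY0690. Within each strain every starved library was above every glucose library, while across strains starved BY4741 overlapped glucose EY0690. The share of all genes ordered so within both strains was not counted. The log2 change was 1.86 ± 0.24 (edgeR, adjusted p = 7.63e-05). SSC1, the Hsp70 itself, went from 389 and 315 to 749 and 434 CPM in BY4741 and from 783 and 836 to 1610 and 1559 CPM in EY0690, again higher in every starved library within a strain. Its log2 change was 0.86 ± 0.19 (edgeR, adjusted p = 0.00356). MGE1, the exchange factor, showed 348 and 263 CPM in glucose against 218 and 248 CPM in starvation in BY4741, and 192 and 233 against 224 and 167 CPM in EY0690. Its conditions overlapped, and the log2 change of -0.26 ± 0.17 did not pass (edgeR, adjusted p = 0.235). The 3 partners of 1 reaction cycle thus had log2 changes of 1.86, 0.86 and -0.26, and the 95% intervals of MDJ1 (1.34 to 2.38) and of MGE1 (-0.62 to 0.10) do not overlap.

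For the chaperonin, HSP60 polyA RNA went from 336 and 253 to 1144 and 426 CPM in BY4741 and from 786 and 880 to 1651 and 1737 CPM in EY0690. Every starved library was above every glucose library of its strain, an order whose share over all genes was not counted. The log2 change was 1.22 ± 0.26 (edgeR, adjusted p = 0.00305). HSP10, the lid of the same barrel, moved less, from 301 and 237 to 375 and 262 CPM in BY4741, where the conditions overlap, and from 265 and 247 to 513 and 381 CPM in EY0690, where they do not. Its log2 change of 0.52 ± 0.19 passed narrowly (edgeR, adjusted p = 0.0450) and was lost in 6 of the 8 fits that left out 1 library, all except those without the first glucose or the second starved BY4741 library. It was also lost with library-size scaling (0.41, adjusted p = 0.0710) and with both regions summed (0.47, adjusted p = 0.0593). With BY4741 alone MDJ1 and HSP78 passed, in a fit that called 376 genes higher and 5 lower, and HSP60 (1.44 ± 0.42), SSC1 (0.78 ± 0.30) and HSP10 (0.28 ± 0.27) did not. With EY0690 alone the same 5 genes passed as in the fit of both strains.

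Calls among genes that work beside these chaperones, and among chaperones of the cytosol, are set here beside the 20.4% of all genes that rose and the 19.2% that fell. The lists were chosen with earlier results of these data known. Of 12 other matrix folding and motor genes, 1 rose and 2 fell: the Hsp70 ECM10, a close relative of SSC1, rose by 0.69 ± 0.21 on the log2 scale, and the import motor J-protein PAM18 and its partner PAM16 fell by 0.86 ± 0.19 and 0.65 ± 0.14. SSQ1, the Hsp70 of iron-sulfur cluster assembly, stood at 0.30 ± 0.14 and did not pass (edgeR, adjusted p = 0.102). Among 13 import channel genes, MGR2 (0.55) rose and TOM5 (-0.59) fell. Of 14 mitochondrial proteases and processing enzymes, the inner membrane proteases YME1 (0.55) and YTA12 (0.43) rose and ATP23 (-0.53) fell. Of 22 cytosolic chaperones and their cofactors 17 rose and none fell, with HSP42, BTN2 and HSP26 at 5.59, 5.27 and 5.04 and a median of 1.49. The cytosolic chaperonin CCT, the counterpart of HSP60 outside mitochondria, had 2 of 8 subunits lower, CCT5 (-0.49) and CCT7 (-0.44), and none higher. Medians were 0.11 for the matrix folding genes, -0.17 for the channels, 0.08 for the proteases and -0.16 for CCT.

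In footprints only HSP78 passed, where 2.93% of 5018 genes rose and 0.259% fell. HSP78 footprints were 35.8 and 69.3 CPM in glucose and 533 and 135 CPM in starvation in BY4741, and 172 and 242 against 1340 and 780 CPM in EY0690. Starved libraries were higher within each strain, and the second starved BY4741 library lay below both glucose EY0690 libraries. The share of all genes with this order within both strains was not counted. The log2 change was 2.51 ± 0.43 (edgeR, adjusted p = 0.00570), a 5.68-fold rise, and it was 2.86 ± 0.34 without both BY4741 libraries numbered 2. With the replicate number as a block, HSP78 stayed the 1 member called while the share of all genes called was 6.46% higher and 2.09% lower. Differences between footprint replicates 1 and 2 correlated between conditions at 0.687 in BY4741 and 0.204 in EY0690. HSP104 footprints rose by 3.46 ± 0.50, and 10 of the 22 cytosolic chaperone genes rose and none fell, BTN2, HSP26 and SSA4 most (5.46, 4.69 and 3.66). No gene of the matrix folding, channel, protease or CCT lists passed in either direction.

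The other 5 members did not pass in footprints, and for HSP60 and SSC1 the BY4741 pair numbered 2 moved against the other pairs. HSP60 footprints were 1241 and 692 CPM in glucose and 2206 and 505 CPM in starvation in BY4741, and 1385 and 1686 against 2395 and 2122 CPM in EY0690. SSC1 gave 1899 and 1055 against 2633 and 709 CPM in BY4741, and 1951 and 2213 against 2643 and 2945 CPM in EY0690. For both genes 3 of 4 same-numbered pairs were higher in starvation, and the conditions overlap. The log2 changes were 0.52 ± 0.42 for HSP60 and 0.30 ± 0.40 for SSC1 (edgeR, adjusted p = 0.646 and 0.820). Without both BY4741 footprint libraries numbered 2 they were 0.65 ± 0.21 and 0.44 ± 0.20 (edgeR, adjusted p = 0.0519 and 0.163). Without the first starved BY4741 library they were 0.016 and -0.12, and without the second 0.81 and 0.59.

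MDJ1 footprints were higher in starvation in 4 of 4 pairs, going from 77.3 and 63.4 to 146 and 68.0 CPM in BY4741 and from 184 and 205 to 415 and 307 CPM in EY0690. The log2 change of 0.74 ± 0.27 did not pass (edgeR, adjusted p = 0.197). It passed without both BY4741 libraries numbered 2 (0.90 ± 0.23, adjusted p = 0.0203), without the second starved BY4741 library alone (0.96, adjusted p = 0.0160) and with EY0690 alone (0.91 ± 0.24, adjusted p = 0.0257). HSP10 footprints were 223 and 175 against 365 and 178 CPM in BY4741 and 154 and 210 against 453 and 237 CPM in EY0690. Its change of 0.68 ± 0.31 did not pass (edgeR, adjusted p = 0.324) except without the second starved BY4741 library (0.90, adjusted p = 0.0458), and was 0.85 ± 0.27 without both libraries numbered 2 (edgeR, adjusted p = 0.0522). MGE1 was the 1 member with fewer downstream footprints in starvation in all 4 pairs, 229 and 227 against 111 and 185 CPM in BY4741 and 105 and 139 against 71.4 and 103 CPM in EY0690. Glucose EY0690 overlapped starved BY4741, and the log2 change of -0.56 ± 0.24 did not pass (edgeR, adjusted p = 0.290). With initiation reads added it was -0.21 ± 0.26, and the first EY0690 pair was then higher in starvation. Without both BY4741 libraries numbered 2 the downstream change was -0.69 ± 0.26 (edgeR, adjusted p = 0.0942).

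**Figure D2:**
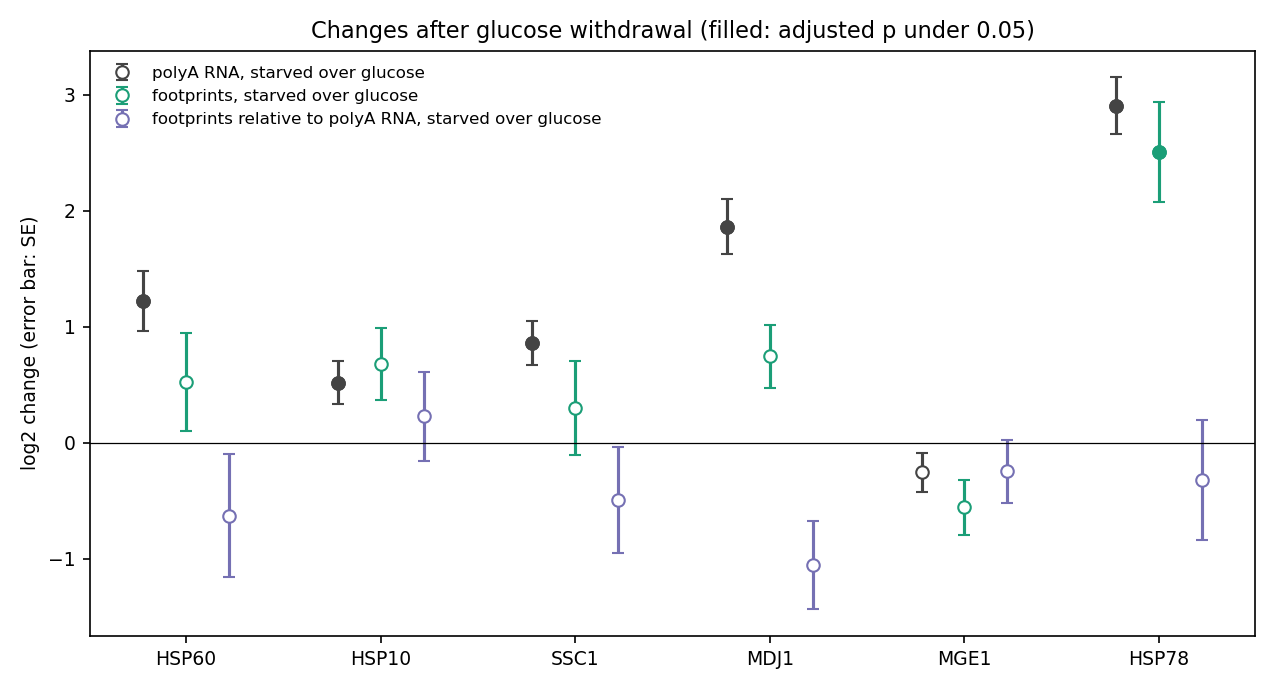
Fitted log2 changes, starved over glucose, with SE bars, for polyA RNA, footprints and footprints relative to polyA RNA. Filled points passed at an adjusted p under 0.05, which 5 genes did in polyA RNA, HSP78 did in footprints and none did for the ratio.

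Footprints relative to polyA RNA, called ribosome occupancy here, gave no member past the threshold, where 0.279% of 5018 genes rose and 1.06% fell. The test was the assay by condition term of 1 edgeR model over 16 libraries. MDJ1 came nearest. Its footprint CPM over the polyA CPM of the same-numbered library was 0.846 and 0.840 in glucose and 0.412 and 0.441 in starvation in BY4741, and 0.939 and 0.974 against 0.441 and 0.372 in EY0690. The 4 glucose ratios, between 0.840 and 0.974, lay above all 4 starved ratios, between 0.372 and 0.441, and no other member had this separation. The share of all genes with such a separation was not counted. The fitted log2 change was -1.05 ± 0.38 (95% interval -1.86 to -0.25, unadjusted p = 0.0131, edgeR adjusted p = 0.175). It was -1.10 ± 0.66 in BY4741 alone and -1.13 ± 0.32 in EY0690 alone, and did not pass in either. DESeq2 gave -1.08 ± 0.41 (adjusted p = 0.108) and the replicate block -1.06 ± 0.31 (adjusted p = 0.0639), with 1.87% of genes higher and 3.03% lower under the block. Without both BY4741 footprint libraries numbered 2 it was -0.89 ± 0.33 (adjusted p = 0.134). Of 24 alternatives the call was reached in 1, without the second starved BY4741 polyA library (-1.39, adjusted p = 0.0324).

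**Figure D3:**
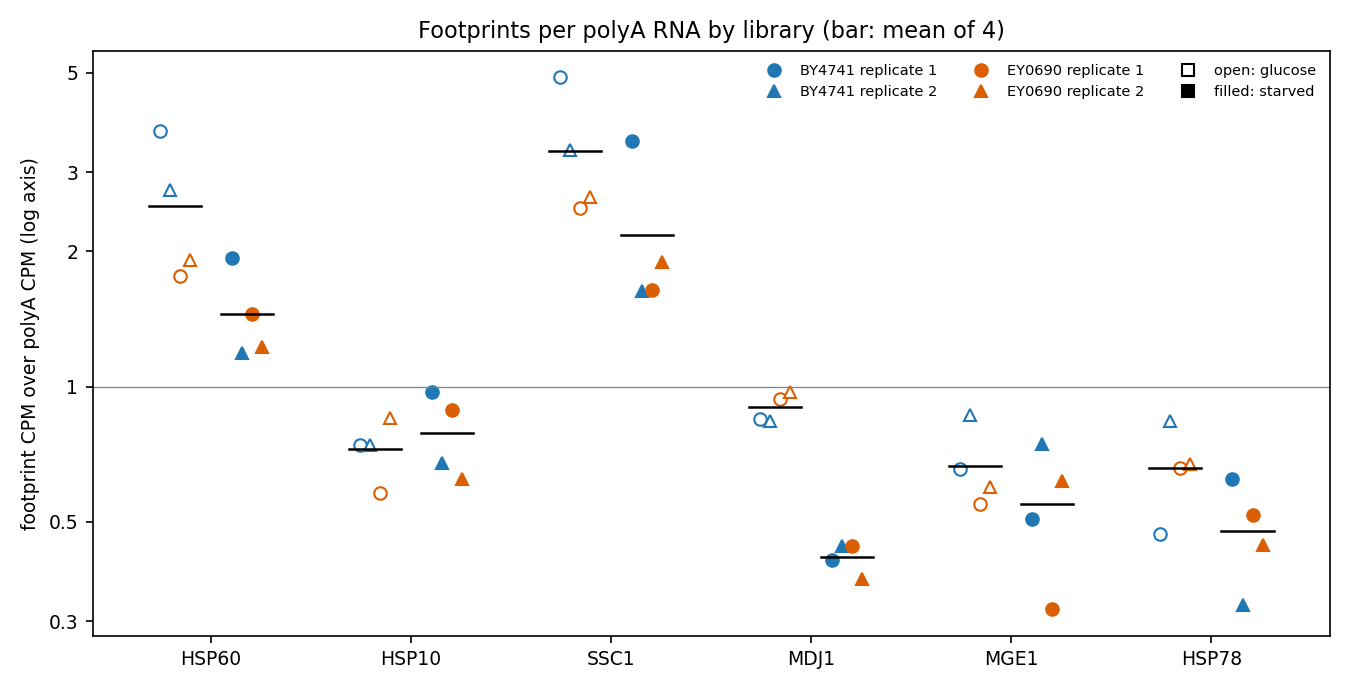
Footprint CPM over polyA CPM of the same-numbered library on a log axis, open symbols for glucose and filled symbols for starvation, with a bar at the mean of 4. MDJ1 is the gene whose conditions do not overlap, and HSP60 and SSC1 have the highest ratios in every library.

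Ratios of HSP60 were 3.70 and 2.73 in glucose against 1.93 and 1.19 in starvation in BY4741 and 1.76 and 1.92 against 1.45 and 1.22 in EY0690. Those of SSC1 were 4.88 and 3.36 against 3.52 and 1.63 in BY4741 and 2.49 and 2.65 against 1.64 and 1.89 in EY0690. Both genes were lower in starvation in each same-numbered pair, but the conditions overlap through the first starved BY4741 library. Their log2 changes of -0.63 ± 0.53 and -0.49 ± 0.46 did not pass (edgeR, adjusted p = 0.601 and 0.640). Without both BY4741 footprint libraries numbered 2 they were -0.51 ± 0.36 and -0.36 ± 0.27. Against RNA without polyA selection the mean footprint ratio of SSC1 went from 1.06 in glucose to 1.08 in starvation in BY4741 and from 1.52 to 1.48 in EY0690, and that of HSP60 from 1.26 to 1.11 and from 1.47 to 1.32. That of MDJ1 went from 0.867 to 0.434 in BY4741 and from 0.945 to 0.585 in EY0690. The median gene itself went from 0.850 to 0.937 in BY4741 and from 0.755 to 0.773 in EY0690. Among the genes compared, SSC1 went from the 64.8 to the 60.4 percentile in BY4741 and from 92.9 to 89.2 in EY0690. HSP60 went from 75.2 to 63.2 and from 92.1 to 84.3, and MDJ1 from 51.0 to 8.07 and from 71.0 to 30.7. Changes relative to polyA RNA were 0.23 ± 0.38 for HSP10, -0.25 ± 0.27 for MGE1 and -0.33 ± 0.52 for HSP78, all with conditions that overlap, and 0.40 ± 0.33, -0.38 ± 0.28 and 0.02 ± 0.44 without both libraries numbered 2. The 95% interval for HSP78, -1.42 to 0.77, leaves room for a 2-fold change in the downward direction. Of the cytosolic chaperones 2 of 22 fell in occupancy, HSP42 (-2.67 ± 0.61) and SSE2 (-1.95 ± 0.45), and no gene of the other 4 lists passed.

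In glucose HSP60 and SSC1 had more footprints per polyA RNA than most genes. Their log2 ratios were 1.86 ± 0.39 and 2.28 ± 0.34 (edgeR, adjusted p = 0.00199 and 0.000466), ranks 122 and 52 of 5018 genes, in a test that called 21.6% of genes higher and 23.4% lower. HSP10 (0.10), MDJ1 (0.40), MGE1 (-0.05) and HSP78 (-0.03) did not pass. Without both BY4741 footprint libraries numbered 2 they were 2.02 ± 0.26 and 2.42 ± 0.20. With BY4741 alone they were 2.33 ± 0.73 and 2.68 ± 0.65 and did not pass, in a fit that called 0 of 4785 genes.

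The RNA libraries made without polyA selection place these ratios differently. In BY4741 in glucose, SSC1 was at 1391 CPM in total RNA and 352 CPM in polyA RNA (mean of 2), a ratio of 3.95 when the median of 4945 genes was 0.745, and HSP60 was at 769 and 294 CPM, a ratio of 2.61. Only 1 total RNA library exists per condition, so these ratios have no replicate check. HSP10 and MGE1 lay on the other side, at 0.371 and 0.368, HSP78 was at 0.503 and MDJ1 at 0.973. In EY0690 in glucose the ratios of pooled total and RiboZero RNA to polyA RNA were 1.69 for SSC1, 1.25 for HSP60, 0.962 for HSP10 and 0.667 for MGE1, with a median gene of 0.932. Set against total RNA, BY4741 footprints of SSC1 in glucose gave a ratio of 1.06 and those of HSP60 1.26, at the 64.8 and 75.2 percentile of genes, where the ratios to polyA RNA, 4.20 and 3.28, were at the 99.1 and 98.5 percentile. HSP10 and MGE1 moved the other way, from the 61.4 and 61.9 percentile against polyA RNA to the 95.0 and 95.3 percentile against total RNA. In EY0690 the ratios of SSC1 and HSP60 were 2.57 and 1.84 to polyA RNA, the 97.4 and 92.9 percentile, and 1.52 and 1.47 to the pooled RNA, the 92.9 and 92.1 percentile. The order of the members by footprints per mRNA in BY4741 therefore depended on the RNA library used, and the part that polyA selection plays in it was not tested.

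**Figure D4:**
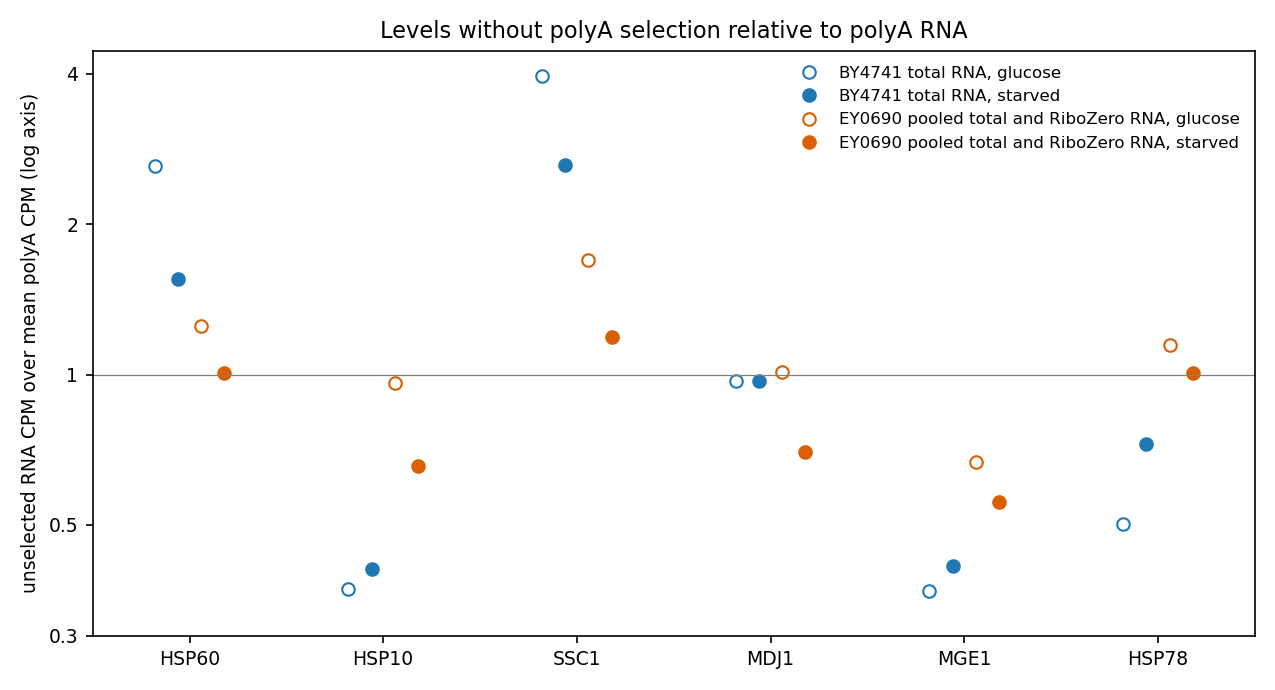
CPM without polyA selection over mean polyA CPM on a log axis, by gene, strain and condition, with 1 point per unselected column. SSC1 and HSP60 are highest in BY4741 in glucose, at 3.95 and 2.61, and HSP10 and MGE1 lowest, at 0.371 and 0.368.

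Without polyA selection, HSP78, MDJ1 and HSP60 also had the 3 highest ratios of starved to glucose RNA, and MGE1 the lowest. In BY4741 total RNA the starved over glucose ratio was 11.6 for HSP78 (87 and 732 counts), 3.04 for MDJ1, 1.59 for HSP60, 1.3 for HSP10, 1.12 for SSC1 and 0.859 for MGE1. In the EY0690 pooled column it was 6.15, 2.996, 1.63, 1.19, 1.38 and 0.766 in the same order. A rise above 1.5-fold was seen for 3 of 6 members in each, HSP78, MDJ1 and HSP60, against 12.8% of 5002 genes in BY4741 and 17.1% of 5229 in EY0690. For SSC1 in BY4741 alone the log2 change was 0.16 in total RNA, 0.78 ± 0.30 in polyA RNA and 0.20 ± 0.79 in footprints. The test of a different response in total and polyA RNA, over 10 libraries, called none of the 6 (edgeR, 0.0% of 4997 genes higher and 0.02% lower, 175 genes at an unadjusted p under 0.05). SSC1 had the lowest unadjusted p of the members, with -0.66 ± 0.40 (unadjusted p = 0.126, edgeR adjusted p = 0.999).

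The strains themselves differed in these genes. PolyA RNA of HSP60, SSC1, MDJ1 and HSP78 was higher in EY0690 than in BY4741, by 1.30 ± 0.26, 1.31 ± 0.19, 1.55 ± 0.24 and 1.87 ± 0.24 on the log2 scale (edgeR, adjusted p = 0.00197, 0.000264, 0.000400 and 0.000118), where 20.2% of 5304 genes were higher and 17.0% lower. HSP10 (0.21 ± 0.19) and MGE1 (-0.39 ± 0.17) did not pass (edgeR, adjusted p = 0.402 and 0.0844). Of the cytosolic chaperone list 15 of 22 were higher in EY0690 and none lower, and of the proteases 8 of 14 higher and 1 lower. Matrix folding genes had 4 of 12 higher and none lower, and import channels 3 of 13 higher and 2 lower. CCT had none higher and 2 of 8 lower. Strain cannot be told apart from the culture and library batch of each strain, since no label gives a batch that holds both strains.

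Footprints differed between strains for 3 members. MDJ1 and HSP78 were higher in EY0690, by 1.62 ± 0.27 and 1.82 ± 0.42, and MGE1 was lower, by -0.84 ± 0.24 (edgeR, adjusted p = 0.00241, 0.0107 and 0.0275), where 11.2% of 5018 genes were higher and 10.7% lower. The MGE1 call was lost in 6 of 8 fits without 1 library, all except those without the first starved BY4741 or the second starved EY0690 library, and without both BY4741 libraries numbered 2 (-0.64 ± 0.26, adjusted p = 0.0888). The HSP78 call was lost without the first starved EY0690 library (adjusted p = 0.0527). HSP60 and SSC1, 0.70 ± 0.42 and 0.62 ± 0.41, did not pass, and without both BY4741 libraries numbered 2 they were 0.17 ± 0.22 and 0.11 ± 0.21. MDJ1 and HSP78 were then 1.32 ± 0.26 and 1.66 ± 0.36 and still passed. In unselected RNA in glucose the EY0690 pooled column and the BY4741 total column, libraries of different kinds, read 1370 and 1391 CPM for SSC1, 1044 and 769 CPM for HSP60, 206 and 81.2 CPM for MDJ1, 356 and 39.9 CPM for HSP78, 247 and 100.0 CPM for HSP10, and 142 and 112 CPM for MGE1. SSC1, 2.30-fold higher in EY0690 polyA RNA in glucose, was at nearly equal values there.

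Whether the strains responded differently was tested as a strain by condition term. None of the 6 passed in polyA RNA, where 0.0566% of genes were higher and 0.113% lower and 300 genes had an unadjusted p under 0.05. None passed in footprints, where no gene passed in either direction (0.0%), 152 had an unadjusted p under 0.05, and DESeq2 called 2 genes higher and 1 lower. The largest polyA term among the members was HSP10, 0.56 ± 0.36 (95% interval -0.22 to 1.34, edgeR adjusted p = 0.999), a range that includes a 2-fold difference between the strains' responses.

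The table also counts reads in an initiation region, with bounds that the sources used here do not give. Its share of the footprints of a whole library was 8.16% to 14.5%. In BY4741 this whole-library share was 14.5% and 8.16% in glucose and 11.8% and 10.6% in starvation. In EY0690 it was 8.60% and 10.8% in glucose and 14.4% and 11.9% in starvation. HSP10, the shortest member with 321 coding bases, had the highest share of the 6 in every library except 2 starved ones (second BY4741, HSP78 higher, and first EY0690, MGE1 higher), with 33.6% and 22.7% in glucose and 39.2% and 23.5% in starvation in BY4741, and 33.8% and 33.3% against 57.9% and 37.97% in EY0690. SSC1 ran from 2.12% to 6.01% over all 8 libraries. For MDJ1 the share was 15.7% and 8.28% in glucose and 18.3% and 21.4% in starvation in BY4741, and 2.73% and 10.2% against 21.7% and 17.0% in EY0690, so that all 4 starved libraries were above all 4 glucose libraries. MGE1 had the same separation, 13.6% and 9.67% against 17.1% and 17.4% in BY4741 and 7.27% and 11.6% against 61.9% and 20% in EY0690. The share of all genes that separate as MDJ1 and MGE1 do was not counted. HSP60 and HSP78 overlapped between conditions.

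In the test of this share, initiation and downstream columns were each TMM-scaled on their own. Its log2 changes of initiation over downstream reads are therefore relative to the other genes. Starved against glucose, they were 1.11 ± 0.52 for MGE1, 1.07 ± 0.70 for HSP78, 0.92 ± 0.45 for MDJ1, 0.59 ± 0.42 for HSP60, 0.03 ± 0.41 for HSP10 and 0.03 ± 0.43 for SSC1. The unscaled share of HSP10 was higher in starvation in every same-numbered pair. That of SSC1 was higher in every pair except the first of BY4741. No member passed (adjusted p in edgeR from 0.253 to 0.981), where 2.68% of 2870 genes were higher and 2.09% lower. With the replicate block HSP78 passed (1.42 ± 0.44, adjusted p = 0.0154) where 7.46% of genes were higher and 7.0% lower, and MGE1 stood at 1.04 ± 0.39 (edgeR, adjusted p = 0.0527). Single libraries moved these values: HSP78 was 0.19 without the second starved BY4741 library, MGE1 0.41 without the first starved EY0690 library and HSP60 0.20 without the second starved BY4741 library, and the highest values with 1 library left out were 1.58, 1.42 and 0.88. Without both BY4741 libraries numbered 2, MGE1 was at 1.26, MDJ1 at 0.73, HSP78 at 0.51 and HSP60 at 0.33, and none passed. Since cycloheximide was given to every culture and lets ribosomes collect near the start, levels of this share include its effect in both conditions, and that part was not tested.

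**Figure D5:**
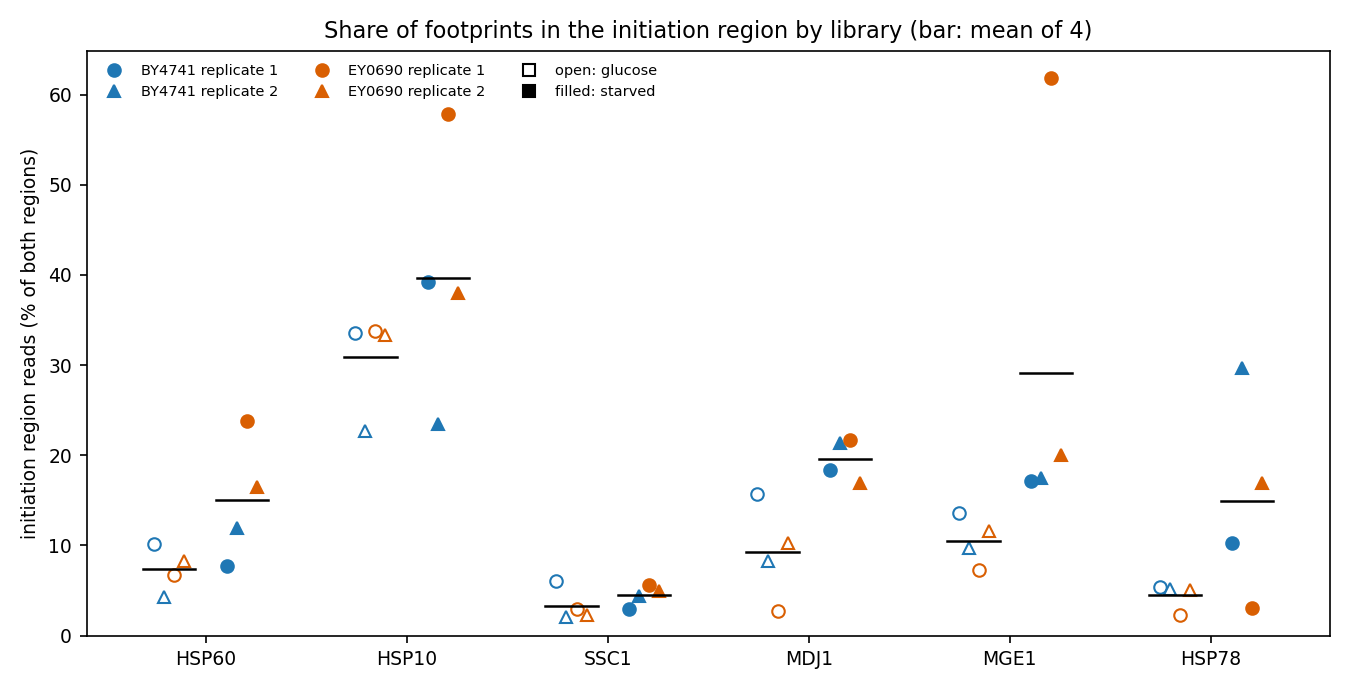
Share of footprints in the initiation region, as a percentage of both regions, by gene and library, open symbols for glucose and filled for starvation, with a bar at the mean of 4. MDJ1 and MGE1 have all starved libraries above all glucose libraries, and the first starved EY0690 library of MGE1 reads 61.9%.

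Levels per length show how the partners stand to one another. Summed over both regions and divided by the listed gene length, MDJ1 relative to SSC1 in polyA RNA was 0.317 ± 0.011 (SD, n = 4) in glucose, between 0.306 and 0.330 in both strains, and 0.629 ± 0.129 in starvation, between 0.458 and 0.757. The ranges do not overlap. HSP78 relative to SSC1 went from 0.246 ± 0.080 to 0.975 ± 0.226 in polyA RNA and from 0.0578 ± 0.0321 to 0.257 ± 0.098 in footprints, again with no overlap. The share of all genes whose ratio to SSC1 separates in this way was not counted. In footprints MDJ1 relative to SSC1 was 0.0973 ± 0.0332 in glucose and 0.157 ± 0.065 in starvation, and these ranges overlap although each of the 4 same-numbered pairs was higher in starvation. HSP60 relative to SSC1 was 1.08 ± 0.14 in glucose and 1.35 ± 0.29 in starvation in polyA RNA, and 0.830 ± 0.073 and 1.03 ± 0.18 in footprints, with overlap, and every same-numbered pair of both assays was higher in starvation. On downstream reads alone, the second EY0690 footprint pair of HSP60 over SSC1 was lower in starvation, 0.871 against 0.824. HSP10 relative to HSP60, lid to barrel, was 4.03 ± 2.34 in glucose and 2.37 ± 1.21 in starvation in polyA RNA, and 1.19 ± 0.39 and 1.54 ± 0.59 in footprints, with overlap in both. By pair, the polyA ratio went from 5.90 to 2.22 and from 6.19 to 4.09 in BY4741, and from 2.21 to 1.87 and from 1.81 to 1.28 in EY0690, lower in starvation each time. In footprints 3 of 4 pairs were higher in starvation. On downstream reads alone, the first BY4741 footprint pair of HSP10 over HSP60 was also lower in starvation, 0.966 against 0.889. These ratios are descriptions with no test of their own.

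Among all 5381 genes ranked per length, the members were at the 60.5 (HSP78) to 96.7 (HSP10) percentile of polyA RNA in glucose and at the 88.7 (MGE1) to 97.7 (HSP10) percentile in starvation. HSP78 went from the 60.5 to the 93.8 percentile and MDJ1 from the 65.8 to the 90.2 percentile, while MGE1 went from 91.6 to 88.7. In footprints HSP78 went from the 60.3 to the 87.9 percentile and MDJ1 from the 72.9 to the 81.4, and SSC1 stayed at 96.1 and 96.6.

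Across the 16 polyA and footprint libraries, centred within assay and strain, log2 CPM of each member was compared with the mean of the other 5. Pearson r was 0.958 for MDJ1, 0.880 for HSP60, 0.833 for SSC1, 0.822 for HSP10, 0.794 for HSP78 and -0.659 for MGE1. HSP60 and SSC1 were the closest pair (r = 0.965). The genes outside the set most like the mean of the 6 were MDG1 (r = 0.981), YGR130C (0.970), YHR138C (0.970), HSP82 (0.970), which encodes a cytosolic Hsp90, and YKR018C (0.970). These r describe libraries that share strains, condition and depth, and carry no test.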

How the data were processed

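Footprint, polyA, total and RiboZero RNA libraries were measured in 2 strains and 2 conditions. Per the submitters' processing notes reads were aligned with Bowtie 0.12.8 and build R64 was used. The sources used here give neither the counting program nor the bounds of the regions. The authors deposited whole-number counts per gene for an initiation and a downstream region, read here in 38 columns. Another 34 columns of per-sample values (RPKM, log2 ratios and 2 initiation columns of the EY0690 pooled RNA) were not used. Blank cells were read as 0 (60 for BY4741 starved footprints, replicate 1, and 20 for its starved total RNA). Listed starts and ends equal the R64 annotation for 759 of 5379 genes matched, so printed coordinates come from the annotation. The listed length was read as bases and used only for levels per length. It is 1718 for HSP60 and 320 for HSP10, where the annotation has 1719 and 321 coding bases.

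Genes reaching 10 counts in 4 or more libraries per library kind were tested on downstream counts with edgeR 4.0.16 (TMM, quasi-likelihood F test) in R 4.3.3, with Benjamini-Hochberg adjustment at 0.05, and with DESeq2 1.42.0 as an alternative. Total RNA has fewer libraries, and both had to reach 10 counts. The test of the initiation share used initiation and downstream counts as separate columns, and each region had to pass the filter. The SE is |log2 change| over the root of the F value. Responses had strain as covariate. CPM were TMM-scaled within assay, and unselected RNA was scaled by library size. The main edgeR fits were also run on simulated counts with known changes. The members, the related lists and the tests were chosen with earlier results of these data known. Named genes are the 6 members, at most the 3 largest called changes of each related list in the polyA and footprint responses, the 5 genes most like the members' mean and the relatives ECM10, SSQ1 and HSP104. HSP42 and SSE2 occupancy were named after their values were seen. MET17 and URA3, planned as a check of the strain labels, were not analysed here. HIS3 had 95 to 723 downstream counts in BY4741 columns and 4 to 216 in EY0690 columns, which is no check because both strain backgrounds usually carry his3 alleles, so the strain labels were not checked. Libraries were paired here by replicate number, and the labels do not say whether same-numbered libraries share a culture. Differences between replicates 1 and 2 correlated between conditions at 0.160 and 0.286 in polyA RNA and 0.687 and 0.204 in footprints (BY4741 and EY0690). The main fits did not use the replicate number. Alternatives were library-size scaling, DESeq2, no filter, the replicate block, each library left out, both regions summed, each strain alone and leaving out both BY4741 footprint libraries numbered 2.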

Additional observations from a re-analysis of the deposited data

Results flagged for a closer look

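In each group of 4 libraries of a condition, the highest or lowest library was compared with the others by Dixon's gap test for the 36 combinations of member, condition and measure. Its critical value is set for about 1 chance flag in 20 among libraries of a single population. Each group here mixes 2 strains, so that rate does not strictly apply. In starved footprints the second BY4741 library lay far below the others for HSP60 (505 CPM against 2122 to 2395 CPM) and for SSC1 (709 CPM against 2633 to 2945 CPM). The other 3 flags concern the share of footprints in the initiation region, with exact Clopper-Pearson 95% intervals that cover counting error only. MGE1 in the first starved EY0690 library had 61.9% (159 of 257 reads, interval 55.6% to 67.8%) against 17.1% to 20% in the others. HSP10 in the second glucose BY4741 library had 22.7% (504 of 2219 reads, interval 21.0% to 24.5%) against 33.3% to 33.8%. HSP78 in the first glucose EY0690 library had 2.34% (4 of 171 reads, interval 0.641% to 5.88%) against 5.10% to 5.34%, so the reads of that library do not separate it from the others.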

How the results depend on the processing

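Of 42 results of single members, 15 passed in the fit as reported and none of those changed sign under any alternative. Over 722 values under alternatives, 642 kept direction and side of the threshold, 23 were no longer past it, 9 were newly past it and 48 changed sign, none of them past the threshold. The number of members called moved from 5 to 2 in polyA RNA with BY4741 alone, from 1 to 2 in footprints without both BY4741 footprint libraries numbered 2 and with EY0690 alone, and to 0 with BY4741 alone. It moved from 2 to 0 for occupancy in glucose with BY4741 alone, which leaves fewer libraries, and from 0 to 1 for the initiation share with the replicate block. The replicate block changed no other call of a member. Leaving out 1 library gave 4 to 5 members in polyA RNA, 1 to 3 in footprints, 0 to 1 for the occupancy change, 4 to 5 for the strain difference in polyA RNA and 1 to 4 for that in footprints. The cause of these moves was not tested.

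Sign changes, in log2 units, were as follows. Occupancy change: MGE1 0.081 with both regions summed, HSP78 0.021 without both BY4741 libraries numbered 2, and HSP10 from -0.072 to 0.36 leaving out 1 library. Occupancy in glucose, with library size alone: HSP10 -0.45 and MDJ1 -0.14. With DESeq2 MGE1 was 0.016 and HSP78 0.029, without a filter HSP78 was 0.0026, and with the replicate block HSP78 was 0.023. BY4741 alone gave MGE1 0.20 and HSP78 0.026, and EY0690 alone gave HSP10 -0.083. Leaving out 1 library gave HSP10 from -0.012 to 0.28, HSP78 from -0.18 to 0.17 and MGE1 from -0.11 to 0.090. Strain difference in footprints: HSP10 -0.19 without both BY4741 libraries numbered 2, and from -0.17 to 0.30 leaving out 1 library. Footprint response: SSC1 from -0.12 to 0.59 leaving out 1 library. Initiation share: SSC1 -0.27 without both BY4741 libraries numbered 2, HSP10 -0.049 and SSC1 -0.25 in BY4741 alone, and leaving out 1 library HSP10 from -0.28 to 0.18 and SSC1 from -0.36 to 0.31.

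Over all genes, the replicate block called 324 higher and 105 lower in footprints against 147 and 13 without it, and 94 and 152 against 14 and 53 for the occupancy change. Library size alone moved the median of all genes from -0.07 to -0.60 for occupancy in glucose, from -0.03 to -0.17 for footprints and from 0.06 to 0.30 for the initiation share. The test of total against polyA RNA could not be fitted without either BY4741 total RNA library. MGE1 footprints had few counts, 98 to 108 downstream reads in the 4 EY0690 libraries. The SE of its footprint response, 0.24, was still the smallest of the 6 members, where the others had 0.27 to 0.43. The part of counting error in these SE was not tested.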
